A study of Sus scrofa with 3 samples.

Results

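MiR-122 and the 2 arms of miR-885 are microRNAs (miRNAs) made largely by hepatocytes, the parenchymal cells of the liver. The 3 mature names ssc-miR-122, ssc-miR-885-5p and ssc-miR-885-3p (the prefix stands for Sus scrofa and is left out from here on) were taken by name from the miRNA counts of pig liver, out of 411 mature names in all. Each had 1 precursor (mir-122 for the first, mir-885 for both arms), and all 3 were above the minimum used for comparisons, a mean of 10 CPM (counts per 1000000 reads of a library), which 208 miRNAs of the series passed. The livers came from male pigs aged 90 days after birth, and each of 3 breeds gave 1 small RNA library. Large White is a commercial breed of European origin, the Enshi black pig is a domestic breed of China, and the last group is Chinese wild boar. The labels name 3 pigs and 3 liver samples, give no treatment or genetic modification, and do not say whether each library is 1 animal. With 1 library per breed, no difference between breeds has a replicate check. All 95% intervals cover counting error only, and a difference between libraries includes any difference between the animals sampled.

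A miRNA is cut from a hairpin precursor, and either strand of the hairpin stem, the 5p or the 3p arm, can be loaded into an Argonaute protein to repress messenger RNAs that match its seed. MiR-122 is the classical hepatocyte miRNA. It is switched on by liver transcription factors such as HNF4A, represses the amino acid transporter gene SLC7A1, supports cholesterol and fatty acid synthesis, and protects the RNA of hepatitis C virus. MiR-885 is a mammalian miRNA found in liver and brain, and its 5p arm has been studied as a serum marker of liver damage. In the RefSeq annotation of pig assembly Sscrofa11.1, which is not the assembly named for the counts, the mir-122 gene lies outside any other annotated gene, between the protein-coding genes ALPK2 and NEDD4L. The mir-885 gene lies within the span of ATP2B2, which encodes a plasma membrane calcium pump.

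The 3 libraries held 7730934 reads (Enshi black), 7343033 reads (Large White) and 7824836 reads (wild boar) after names that repeat another name's reads were left out. The labelled tissue was checked against 3 hepatocyte miRNAs other than the members. On the library total and in the same order of libraries, miR-192 had 34709, 52237 and 37336 CPM, miR-194a had 33642, 41201 and 41381 CPM, and miR-148a-3p had 19805, 15639 and 20344 CPM. Levels are given on 2 scales. CPM of the library total describes the share of all miRNA reads. TMM-scaled CPM divides by a total corrected by the trimmed mean of M-values, a method that takes most miRNAs to be equal between libraries.

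MiR-122 was the most abundant of the 405 miRNAs counted in every library. Its reads numbered 2644501 in Enshi black, 3040156 in Large White and 3090486 in wild boar liver. As a share of all reads this was 34.2% (exact Clopper-Pearson interval 34.17 to 34.24), 41.4% (41.37 to 41.44) and 39.5% (39.46 to 39.53). The Large White library was highest on this scale, the wild boar library next and the Enshi black library lowest, and the 3 intervals do not overlap. The distance to the next miRNA differed between the libraries. In the Enshi black library miR-122 had 6.69 reads for each read of miR-101, its nearest follower. In the Large White library miR-101 was again second, and miR-122 had only 3.95 reads for each of its reads. In the wild boar library miR-26a came second, with 7.64 miR-122 reads for each of its own, and miR-101 after it, with 8.26.

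The miR-885 arms stood in the middle of the expressed miRNAs, far below miR-122. MiR-885-5p had 430 reads in Enshi black, 737 in Large White and 581 in wild boar liver. That placed it at rank 162, 122 and 143 of the 405 miRNAs, with 6150, 4125 and 5319 miR-122 reads for each of its own. MiR-885-3p had 498, 538 and 533 reads in the same order, at rank 153, 131 and 147. The counts of the 3p arm thus lay close together, while those of the 5p arm were spread, with the Large White library highest. On ranks the arms had different neighbours. In the Enshi black library miR-885-5p lay between miR-450c-5p (445 reads) and miR-455-5p (420 reads), in the Large White library between miR-374a-3p (746) and miR-17-5p (715), and in the wild boar library between miR-331-5p (590) and miR-146a-5p (580). None of these neighbours could be separated from it by counting error. The same was true of the neighbours of miR-885-3p, which were miR-182 and miR-143-5p (523 and 491 reads) in the Enshi black library. They were miR-744 and miR-363 (562 and 537) in the Large White library, and miR-374a-3p and miR-363 (562 and 532) in the wild boar library.

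On the library total, miR-885-5p stood at 55.6 CPM in the Enshi black library (exact Poisson interval 50.5 to 61.1), 100.4 CPM in Large White (93.3 to 107.9) and 74.3 CPM in wild boar liver (68.3 to 80.5). These 3 intervals do not overlap. MiR-885-3p stood at 64.4 CPM (58.9 to 70.3), 73.3 CPM (67.2 to 79.7) and 68.1 CPM (62.5 to 74.2), and its intervals overlap in each pair of libraries. After TMM scaling, miR-122 stood at 276264 CPM in Enshi black, 552014 in Large White and 366783 in wild boar liver. MiR-885-5p had 44.9, 133.8 and 69.0 CPM, and miR-885-3p had 52.0, 97.7 and 63.3 CPM, in the same order. On both scales the order of the libraries was the same for the 3 members: Large White, then wild boar, then Enshi black. Only for miR-885-3p on the library total could neighbours in that order not be told apart by counting error. In bulk liver, fewer hepatocytes and less of a miRNA per hepatocyte cannot be told apart.

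**Figure D1:**
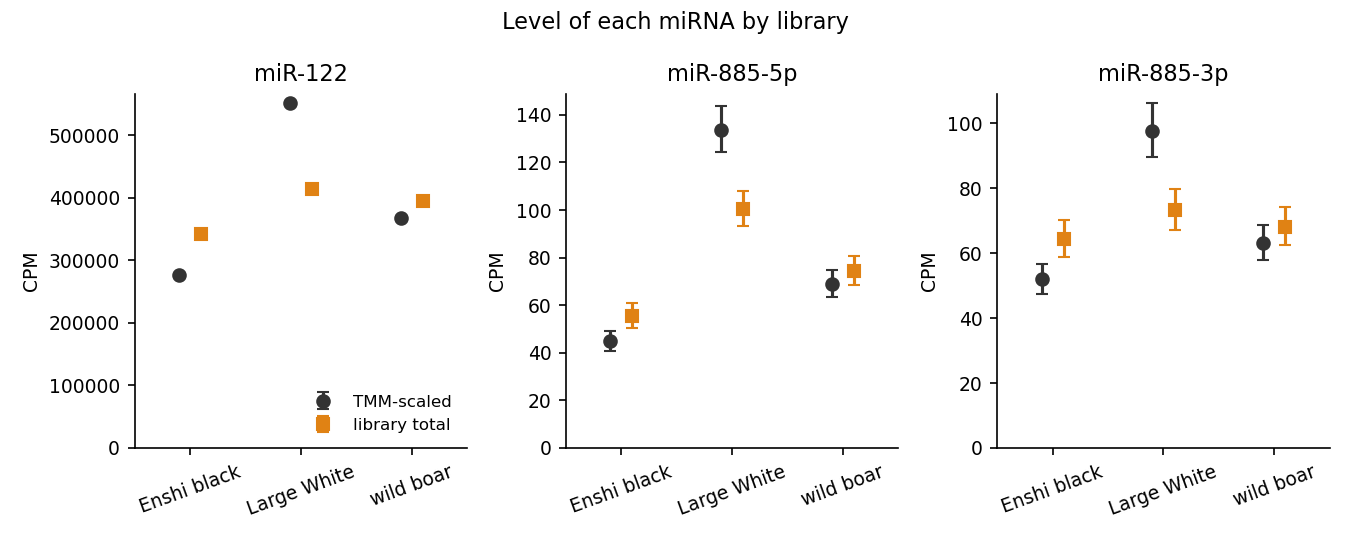
CPM (vertical axes, each from 0) of miR-122, miR-885-5p and miR-885-3p in the 3 libraries, TMM-scaled (circles) and on the library total (squares), with exact 95% Poisson intervals as bars, which are smaller than the symbols for miR-122. The Large White library was highest in each panel, and for miR-885-3p the squares lie between 64.4 and 73.3 CPM with overlapping bars.

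The comparison of the Enshi black with the Large White library held the largest differences of the members. After TMM scaling, the Large White level of miR-885-5p was 2.98 times that of Enshi black (exact conditional-binomial interval 2.64 to 3.36). It was the 1 member past the call rule, a ratio of at least 2-fold with an interval that leaves out 1, which 11.5% of the 208 miRNAs passed in that direction and 2.4% in the other. On the library total the difference was 1.80-fold (1.60 to 2.04), under the rule, which 2.88% of the miRNAs then passed in that direction and 27.4% in the other. For miR-122 the Large White level was 1.998 times the Enshi black level after TMM scaling (1.995 to 2.001), just short of the rule, and 1.21 times it on the library total. MiR-885-3p was 1.88-fold higher in Large White (1.66 to 2.13) after TMM scaling and 1.14-fold higher (1.005 to 1.29) on the library total. TMM moved all log2 ratios in this comparison by -0.72, so that the median of the 208 miRNAs was -0.12 after TMM and 0.60 on the library total. The place of a member among the 208 is free of the scaling. MiR-885-5p had the 8th lowest ratio, miR-122 the 25th and miR-885-3p the 29th.

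In the comparison of the wild boar with the Large White library the members differed less. The Large White level of miR-885-5p was 1.94 times the wild boar level after TMM scaling (1.74 to 2.17) and 1.35 times it (1.21 to 1.51) on the library total. MiR-122 was 1.50-fold higher in Large White after TMM (1.50 to 1.51) and 1.05-fold higher on the library total. MiR-885-3p was likewise 1.54-fold higher in Large White after TMM (1.37 to 1.74), and on the library total its ratio of 1.08 had an interval of 0.952 to 1.21, which holds 1. None of the 3 passed the call rule, which 15.4% of the 208 miRNAs passed on the Large White side and 10.1% on the wild boar side. These shares were 9.13% and 21.6% on the library total, and again no member passed. Their places from the lowest ratio were 36th for miR-885-5p, 55th for miR-885-3p and 57th for miR-122. TMM shifted the log2 ratios of this pair by -0.52, with a median of -0.06 after TMM and 0.46 on the library total.

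Between the Enshi black and wild boar libraries, miR-885-5p had a wild boar level 1.53 times the Enshi black level after TMM scaling (1.35 to 1.74) and 1.33 times it (1.18 to 1.52) on the library total. MiR-122 was 1.33-fold higher in wild boar after TMM (1.325 to 1.330) and 1.15-fold higher (1.15 to 1.16) on the library total. MiR-885-3p was 1.22-fold higher in wild boar after TMM (1.07 to 1.38), and on the library total its ratio of 1.06 had an interval of 0.934 to 1.20. None passed the call rule, which 6.25% of the miRNAs passed in each direction. Counted on the library total, 3.37% passed on the wild boar and 7.21% on the Enshi black side, and no member did. The places from the lowest ratio were 27th for miR-885-5p, 47th for miR-122 and 64th for miR-885-3p. TMM shifted this pair by -0.20, with a median of -0.05 after TMM and 0.15 on the library total. The 3 comparisons share libraries, so their values are not independent of each other.

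**Figure D2:**
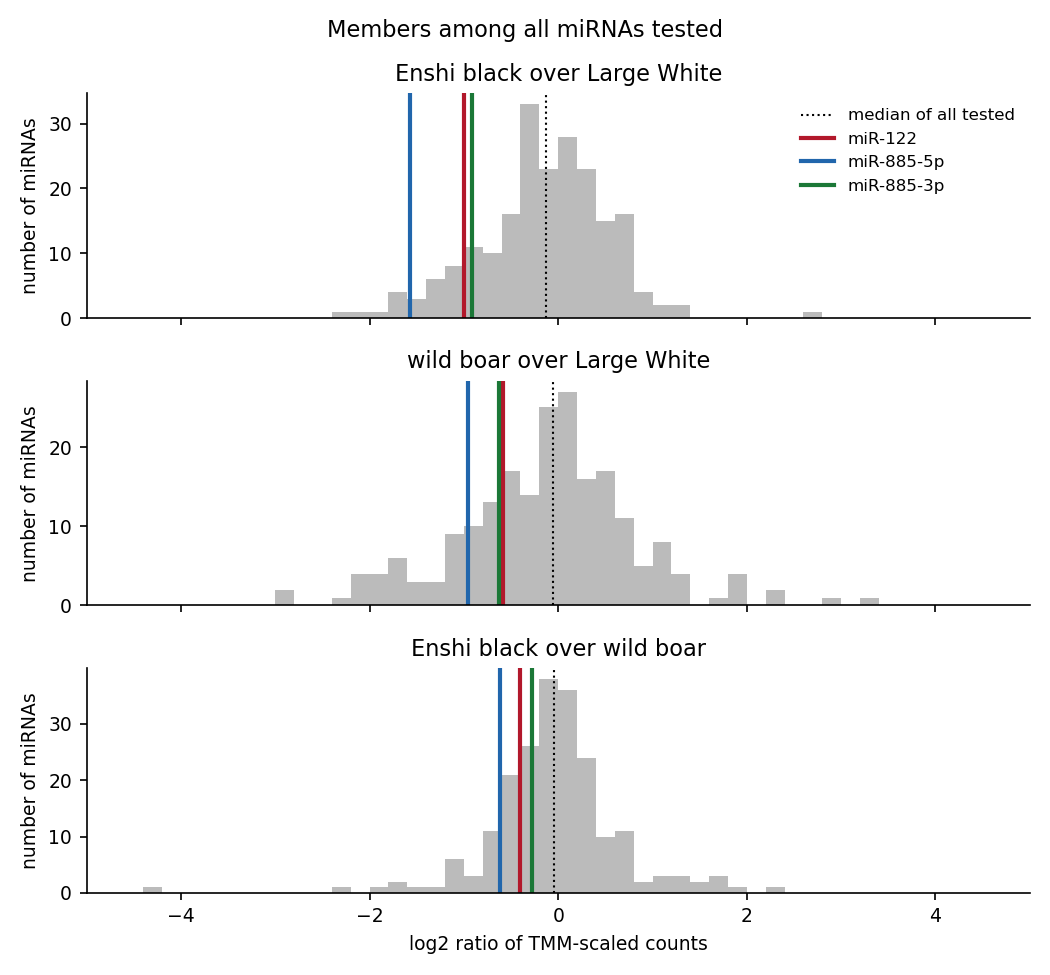
Number of miRNAs (vertical axes) by log2 ratio of TMM-scaled counts (horizontal axis) for the 208 miRNAs tested in each pair of libraries, with the median dotted and the 3 members as coloured lines. In each panel the 3 members lie left of the median and miR-885-5p is the lowest of them, at -1.57, -0.96 and -0.62 from top to bottom.

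The ratio of miR-885 to miR-122 within a library does not depend on any scaling between libraries. MiR-885-3p had 188 reads per 1000000 miR-122 reads in the Enshi black library (172 to 206), 177 in Large White (162 to 193) and 172 in wild boar liver (158 to 188). The 3 intervals overlap. Set against miR-122, miR-885-3p differed 1.06-fold between Enshi black and Large White (0.940 to 1.20), 0.975-fold between wild boar and Large White (0.863 to 1.10) and 1.09-fold between Enshi black and wild boar (0.964 to 1.24). Each interval holds 1, and the widest of them leaves room for differences up to 1.24-fold. Among the 207 miRNAs tested other than miR-122, 94.7%, 90.3% and 87% had an interval that left out 1 in the same comparisons. Many of those rest on far more reads and so have narrower intervals. By the size of the ratio alone, 6, 5 and 29 of the remaining 206 miRNAs stayed closer to miR-122 than miR-885-3p did in the 3 comparisons.

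MiR-885-5p did not keep that proportion. It had 163 reads per 1000000 miR-122 reads in the Enshi black library (148 to 179), 242 in Large White (225 to 261) and 188 in wild boar liver (173 to 204). The Large White library stood above the other two by more than counting error. Set against miR-122, miR-885-5p was 0.671-fold in Enshi black over Large White (0.594 to 0.756), 0.775-fold in wild boar over Large White (0.694 to 0.866) and 0.865-fold in Enshi black over wild boar (0.762 to 0.981). Intervals wholly below 1 were found for 8.7%, 22.7% and 17.9% of the 207 miRNAs in these comparisons. Intervals wholly above 1 were found for 86%, 67.6% and 69.1%, so that most miRNAs stood on the other side of miR-122.

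**Figure D3:**
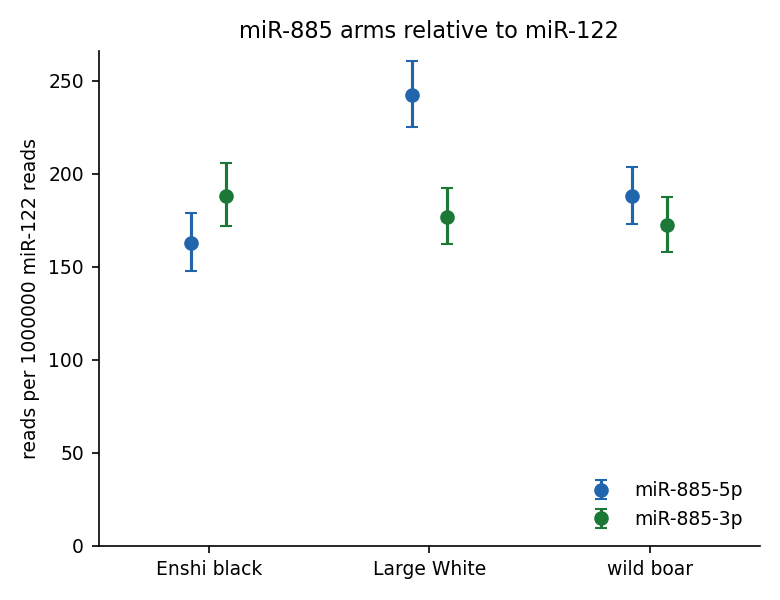
Reads of each miR-885 arm per 1000000 miR-122 reads (vertical axis, from 0) in the 3 libraries, with exact 95% intervals as bars. The 3p arm lies between 172 and 188 with overlapping bars, while the 5p arm reaches 242 in the Large White library.

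The 2 arms come from the same hairpin, so their ratio is likewise free of scaling. Reads of both arms together numbered 928 in Enshi black, 1275 in Large White and 1114 in wild boar liver. Of these, the 5p arm took 46.3% in Enshi black (exact Clopper-Pearson interval 43.1 to 49.6), 57.8% in Large White (55.0 to 60.5) and 52.2% in wild boar liver (49.2 to 55.1). The 3p arm thus led in the Enshi black library and the 5p arm in the Large White library, while in the wild boar library neither led by more than counting error. The 5p to 3p ratio was 0.630-fold in Enshi black over Large White (interval on the log scale from the 4 counts, 0.532 to 0.747). It was 0.796-fold in wild boar over Large White (0.677 to 0.935) and 0.792-fold in Enshi black over wild boar (0.665 to 0.943).

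Differences in arm use between these libraries were common among the miRNAs. Of the miRNAs with both arms named, at least 100 reads over both arms and no arm at 0, 54.7% of 53 had a 5p to 3p ratio that differed between Enshi black and Large White with an interval leaving out 1. The share was 67.3% of 52 in wild boar over Large White and 56.6% of 53 in Enshi black over wild boar. The change of miR-885 on the log2 scale was exceeded by 12, 34 and 29 of them. In percentage points, the 5p share of miR-885 spanned 11.5 over the 3 libraries. The median over the 57 miRNAs with at least 100 reads was 3.56, and 5 spanned more. MiR-885 was the 1 miRNA of the 57 with a 5p share between 40% and 60% in every library, and the 1 whose more abundant arm changed between libraries. That range was chosen after the values were seen, and miR-345 lay just outside it, at 38.4%, 48.0% and 47.5% in Enshi black, Large White and wild boar liver. In the median miRNA the minor arm held 7.51% of the reads, averaged over the libraries.

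**Figure D4:**
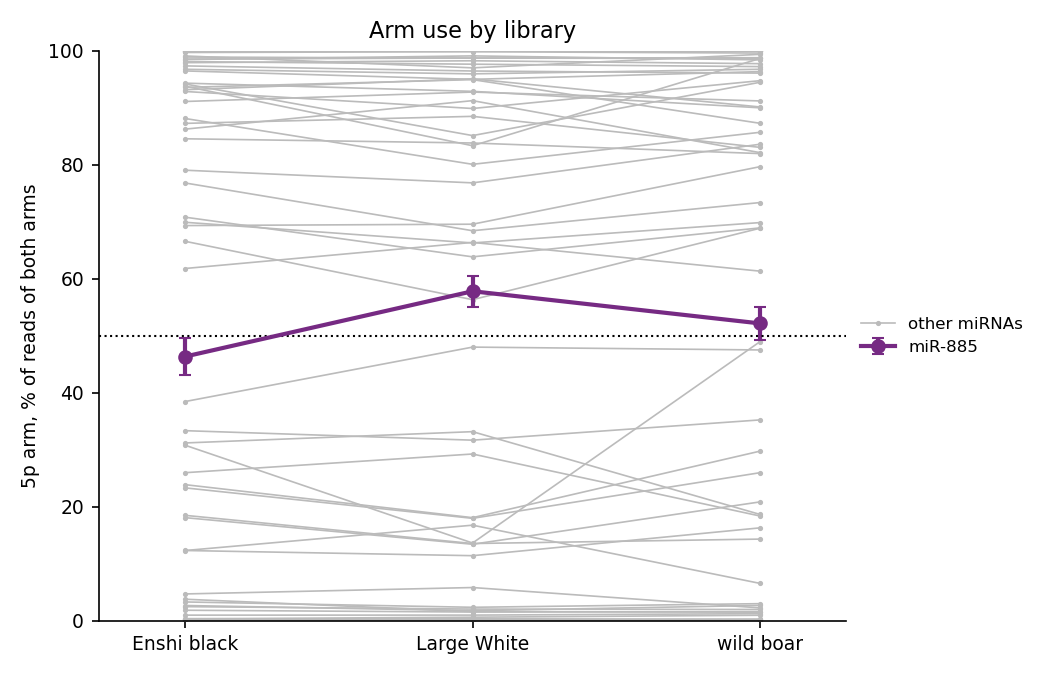
Share of the 5p arm in the reads of both arms (vertical axis, 0 to 100%) for 57 miRNAs in the 3 libraries, with miR-885 in purple and exact 95% intervals as its bars. Lines join the values of a miRNA and do not stand for an order of the libraries. MiR-885 crosses the dotted line at 50%, from 46.3% in the Enshi black to 57.8% in the Large White library.

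The miRNAs whose levels over the libraries were most like those of miR-122 were also sought. Likeness was measured as the distance between the 3 log2 levels of 2 miRNAs, each centred on its own mean, which no scaling changes, among miRNAs of at least 100 mean CPM. The nearest to miR-122 was miR-194a, another abundant liver miRNA, at a distance of 0.07. It had 260081, 302541 and 323801 reads in Enshi black, Large White and wild boar liver. Next came miR-7134-3p at 0.13, miR-378, which is hosted by the metabolic coactivator gene PPARGC1B, at 0.17, miR-32 at 0.21 and miR-22-5p at 0.24. MiR-885-3p, under that level, lay at 0.09 from miR-122, and only miR-194a of the 129 candidates was nearer. The median distance of the candidates from miR-122 was 0.82. With 3 libraries these distances describe the libraries, and many unrelated miRNAs can share a profile of 3 points.

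The arms of miR-885 had different nearest miRNAs. To miR-885-3p the nearest were miR-378 (0.08) and miR-122 (0.09), followed by miR-7134-3p (0.15), miR-194a (0.15) and miR-22-5p (0.21). To miR-885-5p they were miR-192 (0.24), miR-32 (0.24), miR-1285 (0.32), miR-874 (0.35) and miR-22-5p (0.38). MiR-885-5p lay at 0.41 from miR-122 and at 0.47 from its own partner arm. Of the 130 candidates, 5 were nearer to miR-885-5p than miR-122 was and 8 were nearer than miR-885-3p was, with a median distance of 1.14. From miR-885-3p, 24 of 130 were nearer than its partner arm, with a median of 0.76.

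Other miRNAs enriched in liver were compared as a list of 11: miR-192, miR-194a, miR-148a-3p, miR-101, miR-30e-5p, miR-365-3p, miR-455-3p, miR-455-5p, miR-22-3p, miR-378 and miR-215. All 11 passed the expression minimum. The list was chosen with earlier results of these data known, so its counts beside the shares over all miRNAs are descriptive only. In Enshi black over Large White, 5 were lower and 0 higher after TMM scaling, where 11.5% of the 208 miRNAs were lower and 2.4% higher. The list's median log2 ratio was -0.85 against -0.12 over the 208. The 5 were miR-101, miR-192, miR-194a, miR-22-3p and miR-215. On the library total 1 was lower, miR-101, and 0 higher (2.88% and 27.4% of the 208), with a list median of -0.13 against 0.60. In wild boar over Large White, 5 were lower (miR-101, miR-192, miR-22-3p, miR-30e-5p and miR-215) and miR-365-3p was higher after TMM scaling, where 15.4% of the 208 were lower and 10.1% higher. The median was -0.68 against -0.06. Scaled to the library total, miR-101, miR-22-3p and miR-215 were lower and miR-365-3p and miR-455-3p higher (9.13% and 21.6% of the 208), with a median of -0.16 against 0.46. The 2 of 11 that were higher are near the share over all miRNAs. In Enshi black over wild boar, 1 was lower, miR-365-3p, and 0 higher (6.25% of the 208 in each direction), with a median of -0.17 against -0.05. None of the list passed the rule on the library total (3.37% lower and 7.21% higher over the 208), with a median of 0.03 against 0.15.

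MiR-122 was also read against the 4 most abundant entries of the list. For each read of miR-194a, miR-122 had 10.17 reads in Enshi black, 10.05 in Large White and 9.54 in wild boar liver, a narrow range, though the ratio differed by more than counting error in each pair of libraries. For each read of miR-192, which is processed from transcripts shared with miR-194, it had 9.86, 7.93 and 10.6 reads. For each read of miR-101 it had 6.69, 3.95 and 8.26. For each read of miR-148a-3p, which acts on the LDL receptor, it had 17.3, 26.5 and 19.4. The miR-192 and miR-101 ratios were thus lowest in the Large White library, and the miR-148a-3p ratio was highest there.

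Marker miRNAs of other liver cells were also set beside the members. The 2 endothelial markers miR-126-3p and miR-126-5p summed to 19568 CPM of the library total in Enshi black, 7786 in Large White and 13111 in wild boar liver. The 5 stromal markers (miR-143-3p, miR-145-5p, miR-199a-5p, miR-199a-3p and miR-214) summed to 59269, 29669 and 43473 CPM. Both sums were highest in the Enshi black and lowest in the Large White library, the reverse of the order of the members. The order of the sums held after TMM scaling, at 15803, 10381 and 12176 CPM for the endothelial and 47867, 39558 and 40372 CPM for the stromal list. Not every marker kept that order after TMM scaling. MiR-126-5p was then highest and miR-143-3p lowest in the wild boar library, and miR-199a-3p was highest in the Large White library. The 5 leucocyte markers found of 6 (no row matched miR-223) summed to 13070, 16071 and 3933 CPM of the library total, and to 10556, 21427 and 3653 CPM after TMM scaling. This sum was highest in the Large White and lowest in the wild boar library on both scales. Most of its reads were of miR-142-3p (74824 of 101044, 95697 of 118008 and 19777 of 30777). MiR-142-5p (16511, 14818 and 5207 reads), miR-155-5p (5221, 4912 and 4446) and miR-146a-5p (1571, 1004 and 580) were highest in Enshi black on the library total. For miR-155-5p the Enshi black and Large White levels could not be told apart there by counting error. After TMM scaling miR-142-5p, miR-155-5p and miR-146a-5p too were highest in Large White. The remaining marker, miR-150, was highest in Enshi black on the library total and, narrowly, after TMM scaling. The 3 red cell markers summed to 4944, 4112 and 3356 CPM on the library total, highest in the Enshi black library, but to 3993, 5483 and 3116 CPM after TMM scaling, highest in the Large White library. Most of these reads were of miR-451 (30821 of 38221, 20653 of 30197 and 21548 of 26257). The remaining red cell markers together were highest in the Large White library on both scales. The 4 striated muscle markers had 93.4, 107 and 48.7 CPM on the library total, and their sum kept its order after TMM scaling. Of them, miR-133a-3p (183, 162 and 175 reads) was highest in Enshi black on the library total, within counting error. MiR-429, the 1 epithelial marker matched of 5, had 16.4, 8.03 and 13.7 CPM on the library total. Its 127, 59 and 107 reads gave 13.3, 10.7 and 12.7 CPM after TMM scaling, which counting error does not separate. MiR-122 reads for each list read, which no scaling changes, numbered 17.5 in Enshi black, 53.2 in Large White and 30.1 in wild boar liver for the endothelial list. They were 5.77, 14.0 and 9.09 for the stromal, 26.2, 25.8 and 100.4 for the leucocyte and 69.2, 100.7 and 117.7 for the red cell list. The Large White library was thus highest for the first pair of lists and the wild boar library for the other pair. No matched marker was at 0 in any library. The part of these cell types in the differences of miR-122 and miR-885 was not tested.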

How the data were processed

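Pig liver RNA was extracted with TRIzol, small RNA of 14 to 40 nucleotides was cut from a gel, and single-end reads of 50 bases were sequenced, per the labels' protocols. Build Sscrofa 10.2 is named, per the submitters' processing notes. Which aligner, counter and miRNA annotation were used is not given in the sources used here. Deposited read counts are expected counts per pair of mature miRNA and precursor, as rows exactly whole at the 2 decimals given made up 75.7% to 78.8% of each file. The deposited RPM, the count over the sum of all rows times 1000000, were not used. Rows of the 3 members held whole numbers.

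Counts were summed over precursors, 6 names that repeat another name's reads were left out, and sums were rounded. Whole counts had been assumed when the tests were planned. Comparisons used the 208 of 405 miRNAs with a mean of at least 10 CPM, of which 65 hold reads shared between names (sums that differ from whole numbers by over 0.05). Over these 208, edgeR 4.0.16 (R 4.3.3) gave TMM factors of 1.24 (Enshi black), 0.750 (Large White) and 1.08 (wild boar). Alternative size factors came from DESeq2 1.42.0. Intervals are exact conditional-binomial, Poisson or Clopper-Pearson at 95% (scipy 1.17.1), except for ratios of 4 counts. Reads carry no molecular identifiers. Since each breed has 1 library, no p-value was computed. The ratio code was tested on simulated data. The miRNAs named were the members, the 11 liver-enriched miRNAs, the 5 nearest profiles of each member and its neighbours in rank. Members and lists were chosen with earlier results of these data known. Other miRNAs sharing the members' seeds were not analysed here.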

Additional observations from a re-analysis of the deposited data

How the results depend on the processing

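Across 7 alternatives in scaling, filter, shared reads and depth, the 9 log2 ratios of the members kept their sign in 63 of 63 values. For miR-885-3p the interval held 0 in wild boar over Large White on the library total (-0.28 to 0.07). It also held 0 in that pair on the total without miR-122 (-0.33 to 0.02). In Enshi black over wild boar it held 0 on the library total (-0.26 to 0.10). In 61 of the 63 values the ratios also stayed on the same side of the 2-fold rule. On the library total, miR-885-5p in Enshi black over Large White was under 2-fold (-0.85). With libraries thinned to the smallest total, miR-122 in that pair was past it, at a log2 ratio of -1.003. Counts over all miRNAs moved further. They are counts out of 208 miRNAs, except 317 with no expression minimum, 130 at a minimum of 100 CPM and 143 without shared reads. Counts from settings with unlike numbers tested are therefore not directly comparable. In Enshi black over Large White they were 5 higher and 24 lower, 57 and 6 on the library total, 37 and 8 on the total without miR-122, 13 and 39 with no expression minimum, 1 and 12 at a minimum of 100 CPM, and 1 and 2 at 4-fold. Without miRNAs that hold shared reads, 13 were lower. In wild boar over Large White they were 21 higher and 32 lower, 45 and 19 on the library total, 43 and 19 without miR-122, 11 and 21 at 100 CPM and 4 and 7 at 4-fold. With no minimum 38 were higher, and without shared reads 19 were lower. In Enshi black over wild boar they were 13 and 13, 21 and 29 with no minimum, 6 and 8 at 100 CPM and 1 and 2 at 4-fold, and 7 were lower on the library total. These moves follow from construction. A scaling shifts all ratios of a pair together, and the 4-fold rule is stricter. The minimums and the removal of shared reads change how many miRNAs are tested, and TMM factors were also computed anew for each. Without shared reads the factors were 1.17 (Enshi black), 0.810 (Large White) and 1.05 (wild boar), against 1.24, 0.750 and 1.08. On thinning, miR-122 kept 34.2% of the reads in the Enshi black and 41.4% in the Large White library. The TMM factors, computed anew, were 1.241 and 0.749, against 1.238 and 0.750 before. The cause of the change in miR-122 on thinning was not tested. With all deposited rows as the denominator, the share of miR-122 was 34.17%, 41.36% and 39.43% in Enshi black, Large White and wild boar liver. A count of 0 would allow up to 0.313, 0.545 and 0.356 TMM-scaled CPM. No paired analysis was possible because each breed has 1 library.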
